A study of Homo sapiens with 9 samples.

Results

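Transcripts of 10 genes of the unfolded protein response were examined in MDA-MB-231 cells treated with the copper chelator TEPA. The members were chosen by name: the sensors ATF6, ERN1 and EIF2AK3, the transcription factor XBP1, and the chaperones and quality-control genes HSPA5, HSP90B1, DNAJB9, HERPUD1, SDF2L1 and PDIA4. These are 10 of the 59453 gene names in the count table, and all 10 passed the expression filter that left 16556 genes for testing. The members, like the lists further below, were chosen with earlier results of these data known. Their shares of called genes are therefore descriptions and not independent tests against the share over all genes.

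MDA-MB-231 is an established human triple-negative breast cancer (TNBC) line, grown here in flasks in DMEM with 10% FBS. Poly(A)-selected, strand-specific libraries were made from 3 groups of 3 replicates: untreated cells, cells given TEPA for 8 h and cells given TEPA for 24 h. A single untreated group served both times, so the comparisons at 8 h and 24 h share their control libraries and are not independent. The treatment label of that group gives no time, so a change with time in culture cannot be told apart from one with TEPA. The labels give the concentration as 8 mM, and the study's sequencing methods give a lower one, so the dose is not certain. The labels' protocol text names only 24 h, and the time of each group was taken from its own treatment label. TEPA is expanded in the study's text under the names of 2 different polyamine chelators. Nothing in the labels says that the replicates came from separate cultures, so p-values measure only the spread between these libraries.

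The endoplasmic reticulum (ER) folds secreted and membrane proteins, and unfolded proteins there activate the sensors ATF6, IRE1 (encoded by ERN1) and PERK (encoded by EIF2AK3). ATF6 is cut by the site-1 and site-2 proteases to release a transcription factor, IRE1 splices XBP1 mRNA so that it encodes an active transcription factor, and PERK phosphorylates eIF2alpha and slows translation. The resulting factors raise transcription of ER chaperones such as HSPA5 (also called BiP or GRP78) and of genes that send misfolded proteins to degradation, so chaperone mRNA is a common readout of the response. Sensor activity itself is set by cleavage, splicing and phosphorylation, none of which is seen in counts per gene. The spliced and unspliced forms of XBP1 mRNA cannot be told apart in these counts.

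The promoters of the members were read from RefSeq (build GRCh38.p14), in windows from 250 bases before to 50 bases after each transcript start, and all 10 members had a window. Exact matches on either strand were counted for the ER stress element ERSE (CCAAT, then 9 bases of any kind, then CCACG), the element ERSE-II (ATTGG, 1 base of any kind, then CCACG), the XBP1 element UPRE (TGACGTGG) and the core CCACG, which lies within both ERSE and ERSE-II. ERSE was found in the windows of HSPA5, XBP1 and HSP90B1, against 0.0916% of all gene names (0.0769% of all 35116 windows). ERSE-II was found in those of HERPUD1 and SDF2L1, against 0.0696% of gene names (0.0541% of windows). UPRE was found in 0 of 10 members, against 0.927% of gene names (0.729% of windows). The core was found in 8 of 10 members, 5 of which also carried ERSE or ERSE-II, against 42.1% of all gene names (38.1% of windows). EIF2AK3, DNAJB9 and PDIA4 held the core without either element. ATF6 and ERN1 had none of these letters in their windows. A match is a description of the letters and not a shown binding site.

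The 200 bases before the start are given below, 5' to 3' on the strand of the gene, for the 5 members with an element and for DNAJB9, the member with the largest relative decrease at 8 h, whose window held the core but neither element. Capitals mark the conserved ends of ERSE (CCAAT and CCACG, or their complement on the other strand), the letters fixed in ERSE-II and, for DNAJB9, the core. HSPA5 is on chr9:125241344-125241543 (minus strand), HSP90B1 on chr12:103930210-103930409 (plus), XBP1 on chr22:28800570-28800769 (minus), HERPUD1 on chr16:56931942-56932141 (plus), SDF2L1 on chr22:21642102-21642301 (plus) and DNAJB9 on chr7:108569674-108569873 (plus). The stretches lie upstream of the RefSeq start, but the outermost GENCODE start falls inside those of HSPA5, XBP1 and DNAJB9 and before that of HSP90B1, so some annotated transcripts include part of them.
HSPA5: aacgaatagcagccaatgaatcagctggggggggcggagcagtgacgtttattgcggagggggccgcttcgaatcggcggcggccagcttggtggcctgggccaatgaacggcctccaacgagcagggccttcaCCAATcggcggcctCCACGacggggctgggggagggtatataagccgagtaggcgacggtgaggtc
HSP90B1: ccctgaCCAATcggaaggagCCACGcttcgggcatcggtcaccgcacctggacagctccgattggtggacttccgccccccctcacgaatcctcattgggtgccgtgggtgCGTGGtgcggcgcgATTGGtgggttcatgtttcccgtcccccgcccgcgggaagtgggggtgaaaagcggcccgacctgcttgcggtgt
XBP1: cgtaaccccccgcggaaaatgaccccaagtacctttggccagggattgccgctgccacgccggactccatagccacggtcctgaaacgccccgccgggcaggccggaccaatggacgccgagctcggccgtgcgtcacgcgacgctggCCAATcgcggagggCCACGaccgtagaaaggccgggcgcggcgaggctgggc
HERPUD1: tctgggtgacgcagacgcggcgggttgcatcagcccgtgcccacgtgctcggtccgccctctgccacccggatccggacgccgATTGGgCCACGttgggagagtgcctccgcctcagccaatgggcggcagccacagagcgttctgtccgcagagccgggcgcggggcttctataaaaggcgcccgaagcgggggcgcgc
SDF2L1: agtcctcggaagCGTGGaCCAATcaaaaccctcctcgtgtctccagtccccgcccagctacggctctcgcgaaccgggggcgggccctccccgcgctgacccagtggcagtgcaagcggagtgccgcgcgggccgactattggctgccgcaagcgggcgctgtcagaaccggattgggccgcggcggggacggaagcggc
DNAJB9: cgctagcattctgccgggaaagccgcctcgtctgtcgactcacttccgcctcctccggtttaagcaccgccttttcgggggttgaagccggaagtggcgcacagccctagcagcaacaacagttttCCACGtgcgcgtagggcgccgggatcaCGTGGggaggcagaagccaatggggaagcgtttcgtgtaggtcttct

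The ERSE began 66 bases before the start in HSPA5 and 52 bases before it in XBP1. HSP90B1 held a pair of ERSE matches, at 194 bases before the start on the gene's strand and at 89 on the opposite strand. The ERSE-II began at 117 bases before the start in HERPUD1 and, on the opposite strand, at 188 in SDF2L1.

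**Figure D1:**
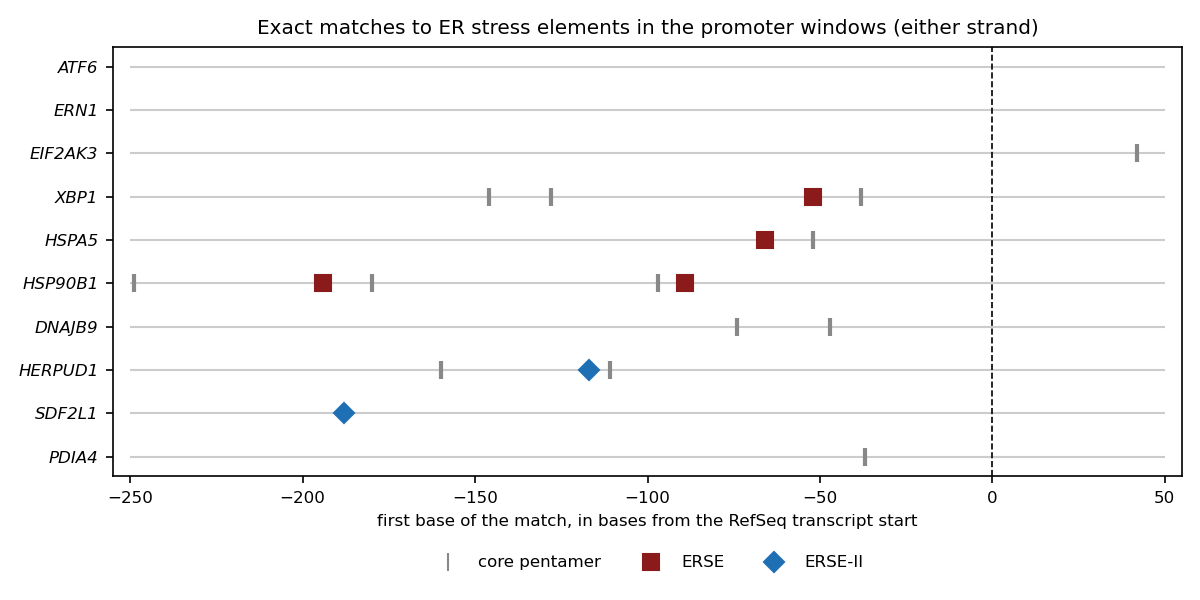
Exact motif matches in the promoter windows of the 10 members. The x axis is the position of the first base of a match from the RefSeq transcript start (the 5'-most window where a gene has several), squares are ERSE, diamonds ERSE-II and ticks the core pentamer. ERSE lies in HSPA5, XBP1 and HSP90B1, ERSE-II in HERPUD1 and SDF2L1, and ATF6 and ERN1 have no match.

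Total counts were 37640135, 46515260 and 39937052 in untreated replicates 1 to 3, 40719360, 38989396 and 37617385 at 8 h, and 49342659, 42338742 and 34633755 at 24 h. The member with the fewest counts in any library was DNAJB9, with 376 counts in TEPA 8 h replicate 3, while HSP90B1 reached 46929 counts. Values below are CPM, the counts of a gene relative to a library size scaled by TMM, a factor that corrects for differences in composition. Together the 10 members took 0.289%, 0.265% and 0.270% of the counts in the untreated libraries. Their share was 0.222%, 0.220% and 0.221% at 8 h, and 0.240%, 0.244% and 0.242% at 24 h, so that the groups did not overlap. HSPA5 and HSP90B1 made up 71.1% to 72.8% of these counts in every library, so the share mostly describes those 2 genes, and other members differ from it. In bulk RNA, fewer cells that express a gene and less of its RNA per cell cannot be told apart.

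In untreated cells, expression per kilobase of the canonical transcript was highest for HSP90B1, at 345 ± 11.9 CPM per kb (SD, n = 3), followed by HSPA5 at 262 ± 10.0, PDIA4 at 156 ± 8.16 and XBP1 at 62.9 ± 5.39. SDF2L1 followed at 35.01 ± 0.715, and then HERPUD1 at 14.8 ± 1.31 and ATF6 at 14.0 ± 0.185, which lay within 1 SD of each other. EIF2AK3 stood at 7.62 ± 0.525, DNAJB9 at 6.67 ± 0.415 and ERN1 at 2.25 ± 0.116 CPM per kb. The abundant lumenal chaperones thus stood at the top of the order and the sensors ERN1 and EIF2AK3 near its end. Reads were counted over all exons, and the canonical lengths may differ from those of the expressed transcripts. For HSP90B1 the canonical transcript has 2782 bases and all exons together 13092. Its place above HSPA5 depends on this length, since in CPM HSPA5 was higher, at 1028 against 959.

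The identity of the line was checked on marker genes. VIM, CD44 and EGFR, marks of a mesenchymal-like basal line, were at 3674 ± 124, 859 ± 61.3 and 435 ± 39.0 CPM in untreated cells. The hormone receptor gene PGR had 0 counts in all 9 libraries, ESR1 was too low to be tested, and EPCAM was at 1.13 ± 0.131 CPM. ERBB2 was at 81.4 ± 5.11 CPM, and CDH1 had 0.624 ± 0.167 CPM untreated, 0.351 ± 0.107 CPM after 8 h and 3.19 ± 0.790 CPM after 24 h. Markers of other cell types moved with the groups. Summed over PTPRC (leukocytes), PECAM1 (endothelium) and COL1A1 (fibroblasts), they came to 18.3, 16.7 and 16.9 CPM in the untreated libraries, 33.6, 33.8 and 33.1 CPM at 8 h and 25.9, 26.5 and 26.3 CPM at 24 h. The sum followed COL1A1, the most abundant of the 3, at 13.7 ± 0.50, 32.4 ± 0.552 and 18.0 ± 0.714 CPM in the 3 groups. PECAM1, lower than untreated at 8 h and higher at 24 h, was at 3.59 ± 0.563, 1.06 ± 0.201 and 8.13 ± 0.928 CPM, and PTPRC had 0 counts in every 8 h library. The share of mitochondrially encoded counts also moved, from 1.79%, 2.91% and 2.13% in untreated libraries to 3.98%, 3.61% and 4.02% at 8 h, with 2.02%, 1.89% and 1.95% at 24 h. The part of either in the results on the members was not tested.

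After 8 h of TEPA, ER chaperone and sensor transcripts were lower than in untreated cells. By edgeR's quasi-likelihood test at an adjusted p under 0.05, 8 of the 10 members fell and 0 rose, where 24.5% of all genes tested fell and 25.2% rose. As the members were chosen with earlier results of these data known, this excess is a description only. The members that fell were ATF6, EIF2AK3, XBP1, HSPA5, HSP90B1, DNAJB9, HERPUD1 and PDIA4, and for these 8 the treated and untreated libraries did not overlap (28.6% of all genes tested were lower without overlap). The changes were moderate: the median log2 fold change of the members was -0.31, against -0.0013 for all genes tested, and DNAJB9 and HERPUD1 alone passed a log2 fold change of -0.5 (7.67% of all genes tested). ERN1 and SDF2L1 were not called. With unadjusted p-values and with DESeq2, the number that rose was 0 as well.

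After 24 h, 7 members fell and 0 rose, against 26.8% and 25.7% of all genes tested, and with unadjusted p-values or DESeq2 0 rose as well. The 7 that fell were ATF6, EIF2AK3, HSPA5, DNAJB9, HERPUD1, SDF2L1 and PDIA4, with a median log2 fold change of -0.26 over the 10 members against 0.0023 for all genes. SDF2L1 and DNAJB9 passed a log2 fold change of -0.5 (8.46% of all genes). Without overlap, 8 members were lower (28.9% of all genes), the eighth being HSP90B1, which the test did not call.

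**Figure D2:**
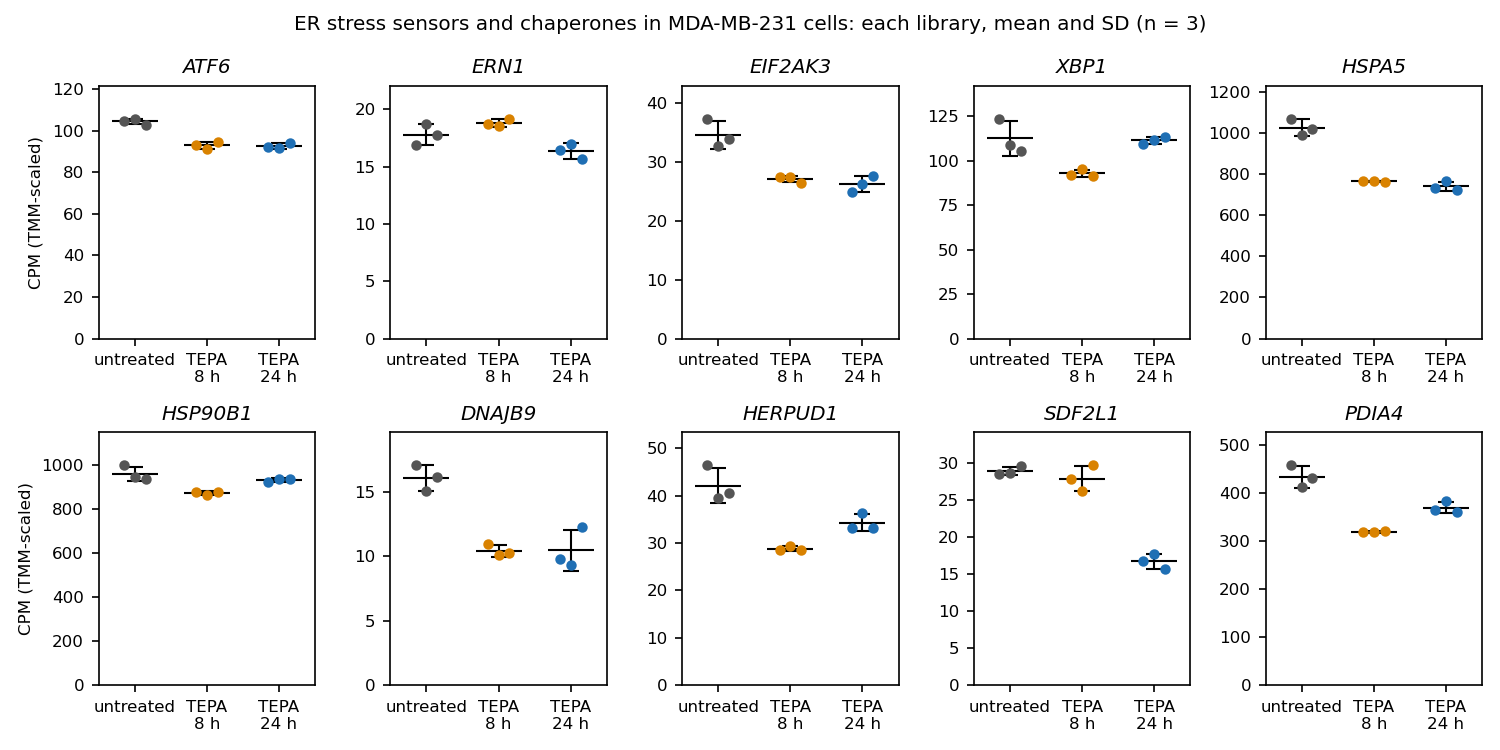
Expression of the 10 members in every library. The y axes give TMM-scaled CPM from 0, points are libraries, and bars are the mean and SD of 3 libraries of untreated cells, TEPA at 8 h and TEPA at 24 h. HSPA5 stands at 991 to 1069.6 CPM in untreated libraries and at 722 to 769 CPM in all 6 treated ones, while SDF2L1 is low only at 24 h.

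Among the sensors, ATF6 is the membrane-bound precursor of a transcription factor. ATF6 was at 104.7, 105.7 and 102.95 CPM in untreated replicates 1 to 3, 93.0, 91.2 and 94.8 CPM at 8 h and 92.1, 91.6 and 94.1 CPM at 24 h. All 6 treated libraries lay below all untreated ones, with little spread inside each group. By edgeR's quasi-likelihood test ATF6 fell by 10.98% at 8 h (adjusted p = 0.0011). At 24 h it fell by 11.4% (adjusted p = 0.00069), and each log2 fold change was -0.17 with a standard error of 0.036.

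EIF2AK3, the kinase PERK, showed the largest decrease among the 3 sensors. It was at 37.2, 32.6 and 33.9 CPM in untreated libraries, 27.4, 27.3 and 26.4 CPM at 8 h and 24.8, 26.2 and 27.5 CPM at 24 h. No treated library reached the lowest untreated value. EIF2AK3 fell by 21.7% at 8 h (log2 fold change -0.35, standard error 0.059, adjusted p = 0.00013 in edgeR's quasi-likelihood test) and fell by 24.4% at 24 h (-0.40, adjusted p = 3e-05).

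ERN1, the kinase and ribonuclease IRE1, was called in neither comparison with untreated cells. Its values were 16.9, 18.7 and 17.8 CPM in untreated libraries, 18.7, 18.6 and 19.2 CPM at 8 h and 16.4, 17.0 and 15.6 CPM at 24 h. Untreated libraries overlapped with both treated groups, but the treated groups did not overlap with each other. Against untreated cells the log2 differences were 0.08 for 8 h and -0.12 for 24 h, each with a standard error of 0.061. Neither was called by edgeR's quasi-likelihood test (adjusted p = 0.31 and 0.11), which does not show that the levels were equal. The 24 h call depended on 1 library, since without untreated replicate 1 the log2 fold change was -0.16 with an adjusted p of 0.046. At 8 h the log2 fold change ran from 0.0403 to 0.11 when 1 library was left out, and stayed uncalled. Between the times ERN1 fell by 13.0% (log2 fold change -0.20, adjusted p = 0.011). Its paralog ERN2 had 0 counts in all 9 libraries.

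XBP1, the transcription factor whose mRNA IRE1 splices, was lower at 8 h but not at 24 h. It was at 123.6, 108.7 and 105.5 CPM in untreated libraries, 92.2, 95.4 and 91.7 CPM at 8 h, and 109.3, 112.0 and 113.2 CPM at 24 h. The 8 h libraries lay below all others, and the 24 h libraries lay within the untreated range. XBP1 fell by 17.3% at 8 h (log2 fold change -0.27, standard error 0.051, adjusted p = 0.00034 in edgeR's quasi-likelihood test). At 24 h the log2 fold change was -0.01 (adjusted p = 0.84), and the level was higher than at 8 h by 19.8% (0.26, adjusted p = 0.00042).

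Among the chaperones, HSPA5, the lumenal Hsp70 that also binds the sensors, was lower at both times. It was at 1069.6, 991 and 1022 CPM in untreated libraries, 769, 766 and 765 CPM at 8 h and 736, 767 and 722 CPM at 24 h. The treated groups overlapped with each other and lay well below every untreated library. HSPA5 fell by 25.4% at 8 h (log2 fold change -0.42, standard error 0.038, adjusted p = 3e-07 in edgeR's quasi-likelihood test) and fell by 27.8% at 24 h (-0.47, adjusted p = 5.7e-08). The log2 fold change of 24 h against 8 h was -0.05 (adjusted p = 0.3).

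DNAJB9, an ER-resident J-domain protein that works with HSPA5 and also represses IRE1, had the largest relative decrease of the members at 8 h. It was at 17.0, 15.04 and 16.1 CPM in untreated libraries, 10.9, 10.1 and 10.2 CPM at 8 h and 9.77, 9.34 and 12.2 CPM at 24 h. The treated groups did not overlap with the untreated one, although replicate 3 at 24 h stood above the others of its group. The log2 fold changes were -0.62 (standard error 0.092, adjusted p = 4.3e-05 in edgeR's quasi-likelihood test) and -0.63 (adjusted p = 3e-05), that is, DNAJB9 fell by 34.98% at 8 h and fell by 35.2% at 24 h.

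SDF2L1, a lumenal partner of the HSPA5 chaperone cycle, changed late. It was at 28.5, 28.6 and 29.6 CPM in untreated libraries, 27.7, 26.2 and 29.6 CPM at 8 h and 16.8, 17.6 and 15.7 CPM at 24 h. The 8 h libraries overlapped with the untreated ones, and the 24 h libraries lay below all others. SDF2L1 had a log2 fold change of -0.05 with an adjusted p of 0.49 at 8 h and of -0.79 with a standard error of 0.061 (adjusted p = 4e-08 in edgeR's quasi-likelihood test) at 24 h, where it fell by 42.1%, the largest decrease of any member. The step from 8 h to 24 h was itself called (-0.74, adjusted p = 8.5e-08). When 1 library was left out, the 8 h log2 fold change of SDF2L1 ran from -0.1052 to -0.0152 and stayed uncalled.

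PDIA4, a protein disulfide isomerase, fell and then stood partly higher. It was at 457, 412 and 429.9 CPM in untreated libraries, 317, 319 and 321 CPM at 8 h and 363, 382 and 361 CPM at 24 h. The 3 groups did not overlap, with 24 h between the others. PDIA4 fell by 26.3% at 8 h (log2 fold change -0.44, standard error 0.041, adjusted p = 4e-07 in edgeR's quasi-likelihood test) and fell by 14.8% at 24 h (-0.23, adjusted p = 0.00017), and the later level exceeded the earlier one (0.21, adjusted p = 0.00042).

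HSP90B1, the lumenal Hsp90 known as GRP94, was lower at 8 h by a small margin. It was at 997, 943 and 937 CPM in untreated libraries, 876, 862 and 878 CPM at 8 h and 921, 934 and 935 CPM at 24 h. The 8 h libraries lay below all others, while the highest 24 h library lay just under the lowest untreated one. HSP90B1 fell by 9.07% at 8 h (log2 fold change -0.14, standard error 0.035, adjusted p = 0.0041 in edgeR's quasi-likelihood test). At 24 h the log2 fold change was -0.04 (adjusted p = 0.31), and it ran from -0.0623 to -0.0174 when 1 library was left out. The difference between the times was 0.09 (adjusted p = 0.035), and this call was lost in each of the 6 fits that left out 1 library of those groups, with adjusted p-values up to 0.098. HSP90B1 shares exon sequence with MIR3652 on the same strand. Its pseudogenes HSP90B1P1, HSP90B1P2 and HSP90B1P3 were not among the gene names counted, so they have no values here.

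HERPUD1, a membrane protein of ER-associated degradation (ERAD), was lowest at 8 h, as PDIA4 was. It was at 46.4, 39.4 and 40.5 CPM in untreated libraries, 28.6, 29.3 and 28.5 CPM at 8 h and 33.2, 36.4 and 33.2 CPM at 24 h. The 3 groups did not overlap, with 8 h lowest. HERPUD1 fell by 31.5% at 8 h (log2 fold change -0.55, standard error 0.062, adjusted p = 3.2e-06 in edgeR's quasi-likelihood test) and fell by 18.5% at 24 h (-0.29, adjusted p = 0.00074), the later level again exceeding the earlier (0.25, adjusted p = 0.0029).

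Between the times, the members thus moved in different directions. At 24 h against 8 h, XBP1, HSP90B1, HERPUD1 and PDIA4 were called higher (4 of 10, against 26% of all genes tested) and ERN1 and SDF2L1 lower (2 of 10, against 28.8%), in edgeR's quasi-likelihood test, together close to the share over all genes. Their groups did not overlap either (29.6% of all genes higher and 32.4% lower without overlap). ATF6, EIF2AK3, HSPA5 and DNAJB9 were not called, with log2 fold changes between -0.05 and -0.01, and the sign of ATF6 and of DNAJB9 turned under other scalings.

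Within the untreated group, replicate 1 was the highest library for EIF2AK3, XBP1, HSPA5, HSP90B1, DNAJB9, HERPUD1 and PDIA4, and the lowest for ERN1 and, by a small margin, SDF2L1. Without it, 8 members still fell at 8 h. At 24 h, 8 fell in place of 7, ERN1 being the one added.

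**Figure D3:**
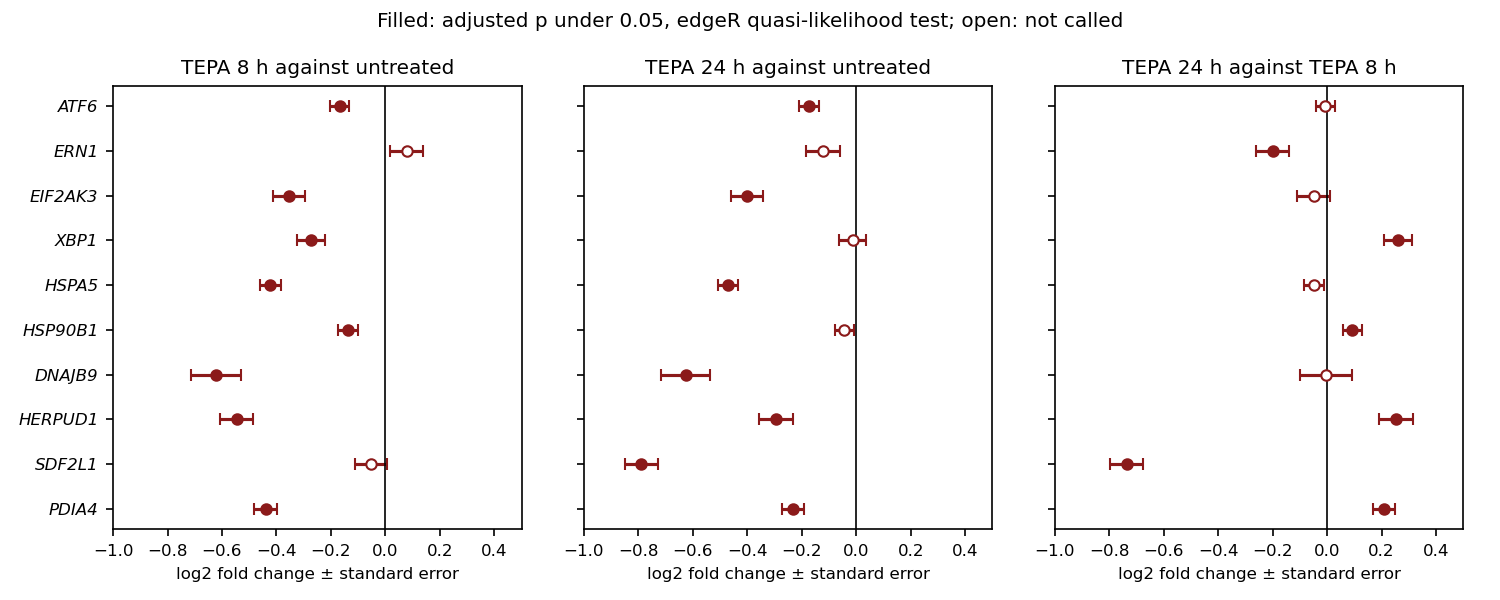
Log2 fold changes of the 10 members in the 3 comparisons, with standard errors from edgeR's quasi-likelihood test. Filled points have an adjusted p under 0.05. At 8 h 8 filled points lie below 0, at 24 h 7 do, and between the times 4 lie above 0 and 2 below.

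The other genes of the response were taken from lists by role, and each list is described by its counts and its median. Over all genes tested, 25.2% rose and 24.5% fell at 8 h (median log2 fold change -0.0013), 25.7% rose and 26.8% fell at 24 h (0.0023), and 26% rose and 28.8% fell from 8 h to 24 h (-0.0155). Among the list genes named below, CNPY2, DDIT3, MBTPS2, PDIA5, SYVN1, SSR1, SRPRB, KDELR2, HSPA8 and HSPA1B, like ATF6B, overlap exons of another annotated gene on the same strand, so their counts are uncertain to that extent. The partners of the sensors comprised 13 genes, of which 12 were tested. At 8 h 1 rose and 7 fell, that is 58.3% (median -0.16), and at 24 h 3 rose and 8 fell, that is 66.7% (-0.18). MBTPS1, the site-1 protease that makes the first cut in ATF6, had 154 ± 9.93 CPM untreated, 121 ± 1.25 after 8 h and 173 ± 4.51 after 24 h, and so fell at 8 h (log2 fold change -0.35, adjusted p = 9.3e-06) and rose at 24 h (0.17, adjusted p = 0.0043) in edgeR's quasi-likelihood test. MBTPS2, the site-2 protease, fell at both times (-0.20 and -0.38). ATF6B, the paralog of ATF6, also fell at both times (-0.16 and -0.46), though its exons overlap those of TNXB on the same strand. TRAF2, the adaptor that IRE1 recruits, rose at both times (0.23 and 0.41). CREB3L1, another ER-bound transcription factor cut by the same proteases, was at 134 ± 3.46 CPM untreated and 95.5 ± 4.54 CPM at 24 h, when it fell (-0.49).

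Of 26 further ER folding genes, all tested, 18 fell, that is 69.2%, and 3 rose at 8 h (median -0.22), and 14 fell, that is 53.8%, and 4 rose at 24 h (-0.18). The 3 that rose at 8 h became 1 without a filter, without untreated replicate 2 or 3, and without TEPA 8 h replicate 2 or 3. CALR, the calcium-binding lectin chaperone calreticulin, had 1420 ± 50.7 CPM untreated, 1085 ± 5.43 CPM after 8 h and 1110.5 ± 14.3 CPM after 24 h, and fell at both times (log2 fold changes -0.39 and -0.36, adjusted p = 3.8e-07 and 6.3e-07 in edgeR's quasi-likelihood test). PDIA6, a disulfide isomerase, fell at both times (-0.39 and -0.21). ERO1B, an ER oxidase, fell at 8 h (-0.68) and was not called at 24 h (-0.18). Others went the other way: CNPY2, which has such an overlap too, rose at 8 h (0.49), and the prolyl isomerase FKBP14 and the lumenal protein ERP29 rose at 24 h (0.56 and 0.26), when ERP44 and PDIA5 fell (-0.35 and -0.55). ERP29 was itself among the genes that fell at 8 h (-0.16). The decreases were therefore frequent in the folding list but not common to all of its genes.

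Of 20 ERAD genes, 9 fell, that is 45.0%, and 2 rose at 8 h (median -0.12). At 24 h 7 fell and 4 rose, that is 20.0% (median -0.02), and the 4 became 2 without TEPA 24 h replicate 2. The lectin ERLEC1 was at 67.2 ± 3.14 CPM untreated, 49.97 ± 1.17 CPM at 8 h and 67.8 ± 1.94 CPM at 24 h, so that it fell at 8 h (-0.43), was not called at 24 h (0.01) and rose between the times (0.44). EDEM1, which helps to extract mannose-trimmed proteins, fell at 8 h (-0.32), and HERPUD2, the paralog of HERPUD1, fell at 8 h (-0.38). EDEM2 rose at 24 h (0.53), while the ubiquitin ligase SYVN1 fell (-0.24). AUP1, which recruits the ubiquitin-conjugating enzyme UBE2G2, rose at 8 h (0.28) and fell at 24 h (-0.48), with means of 329 ± 8.43, 398 ± 6.88 and 236 ± 7.07 CPM in the 3 groups. From 8 h to 24 h, 11 ERAD genes rose and 4 fell.

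Genes of protein entry into the ER fell in 9 of 17 cases (52.9%) at 8 h, with 2 that rose (median -0.12), and in 12 of 17 (70.6%) at 24 h, with 1 that rose (-0.17). The 2 that rose at 8 h, SEC11C and SSR3, became 0 without TEPA 8 h replicate 1, and 1 with DESeq2, without a filter, without untreated replicate 1 or 3 and without TEPA 8 h replicate 2. The 1 that rose at 24 h became 2 without a filter or without TEPA 24 h replicate 2. SSR1, SEC61G and SEC61B, of the translocon and its associated complex, fell at 8 h (-0.34, -0.31 and -0.27). SRPRB, of the signal recognition particle receptor, and SERP1, a translocon-associated stress protein, fell at 24 h (-0.39 and -0.33).

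Of 15 genes of transport between ER and Golgi, 11 fell, that is 73.3%, and 0 rose at 8 h (median -0.18), where 0 also rose with DESeq2 and with unadjusted p-values. At 24 h 8 fell, that is 53.3%, and 1 rose (-0.12), a count that became 0 without untreated replicate 2 or 3 or TEPA 24 h replicate 3 and 2 without TEPA 24 h replicate 2. Among them are the KDEL receptors, which return lumenal chaperones such as HSPA5 to the ER. KDELR3 was at 46.7 ± 4.76 CPM untreated, 31.0 ± 0.790 CPM at 8 h and 39.3 ± 0.808 CPM at 24 h, and fell at both times (-0.59 and -0.25). KDELR2 also fell at both (-0.31 and -0.21), and KDELR1 fell at 8 h (-0.18) and was not called at 24 h (-0.06, adjusted p = 0.29 in edgeR's quasi-likelihood test).

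The genes of the PERK and ATF4 branch did not share one direction. Of 16, 5 rose and 5 fell at 8 h (median -0.01), and 6 rose and 4 fell at 24 h (0.08). The decreases, 31.2% and 25.0% of the list, were close to the shares over all genes. The 5 that rose at 8 h became 3 without untreated replicate 3 or TEPA 8 h replicate 2, and 2 without TEPA 8 h replicate 3. DDIT3, the stress factor CHOP and one of the genes with such an overlap, was at 9.96 ± 0.799 CPM untreated, 6.74 ± 0.449 CPM at 8 h and 4.34 ± 0.268 CPM at 24 h. By edgeR's quasi-likelihood test DDIT3 fell at 8 h (-0.57, adjusted p = 8.3e-05) and stood lower still against untreated cells at 24 h (-1.20, adjusted p = 4e-08), and the step between the times was called as well (-0.63). ATF4, which activates DDIT3 and was named after its values were seen, fell at both times (-0.22 and -0.16). CEBPB and ATF3 fell at 8 h (-0.49 and -0.74), PPP1R15A, which directs dephosphorylation of eIF2alpha, rose at 8 h (0.23) and fell at 24 h (-0.47), TRIB3 fell at 24 h (-0.34) and STC2 rose at 24 h (0.88). Of the other eIF2alpha kinases, EIF2AK2 (PKR) rose at both times (0.26 and 0.46), EIF2AK1 (HRI) fell at 8 h and rose at 24 h (-0.12 and 0.33), and EIF2AK4 (GCN2) rose at 8 h (0.10) and was not called at 24 h (0.00). The 8 h call of EIF2AK1 was lost without untreated replicate 1 or TEPA 8 h replicate 3 (adjusted p = 0.065 and 0.073), and that of EIF2AK4 in 5 of the 6 fits without 1 library.

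Most chaperones of the cytosol, whose induction by stress runs through HSF1, were higher at 8 h. Of 12 genes, HSF1 included, 8 rose, that is 66.7%, and 2 fell at 8 h (median 0.28), while 1 rose and 6 fell at 24 h (-0.13). From 8 h to 24 h 10 fell and 0 rose (-0.30), with 0 also by DESeq2 and by unadjusted p-values. The 2 that fell at 8 h were the small heat shock protein HSPB1 (-0.49) and the co-chaperone BAG3 (-0.39). The 1 that rose at 24 h, HSP90AA1, became 0 without untreated replicate 1 or TEPA 24 h replicate 1, and 2 with upper-quartile factors, without a filter, with unadjusted p-values, and without untreated replicate 3 or TEPA 24 h replicate 3. HSPA8, the constitutive cytosolic Hsp70, was at 2328 ± 217 CPM untreated, 2902 ± 45.5 CPM at 8 h and 1667 ± 29.8 CPM at 24 h (log2 fold changes 0.32 and -0.48). HSP90AA1, the cytosolic counterpart of HSP90B1, rose at both times (0.46 and 0.17), though the 24 h call was lost without untreated replicate 1 (0.09, adjusted p = 0.053) and without TEPA 24 h replicate 1 (0.16, adjusted p = 0.074). HSPA1B, an inducible Hsp70, rose at 8 h (1.24, adjusted p = 2e-09 in edgeR's quasi-likelihood test) and stood at -0.01 at 24 h, and HSPA1A rose at 8 h (1.51), but these nearly identical copies share reads, so their separate values are uncertain.

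**Figure D4:**
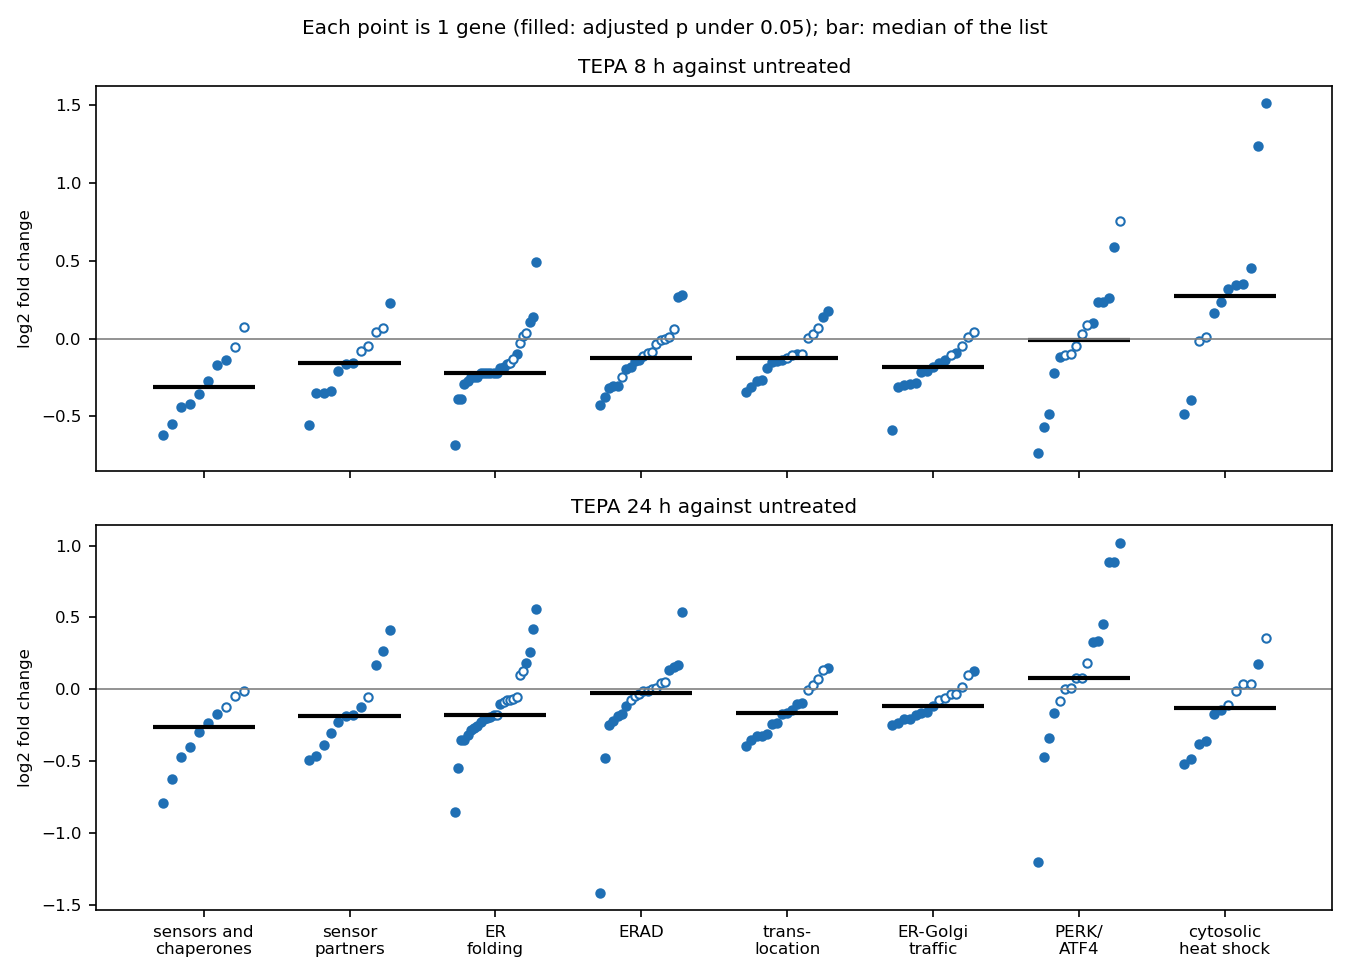
Log2 fold changes against untreated cells at 8 h (top) and 24 h (bottom) for the 10 members and the 7 lists. Each point is 1 tested gene, filled at an adjusted p under 0.05, and bars are medians. At 8 h the median of the members is -0.31, that of the ER folding list -0.22 and that of the cytosolic heat shock list 0.28.

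Beyond the members, an exact ERSE was carried by 13 other tested genes. Of these, 8 fell and 1 rose at 8 h (median -0.19), against 24.5% and 25.2% of all genes. At 24 h 5 fell and 2 rose (-0.11), against 26.8% and 25.7%. CALR, CANX, CRELD2, ERO1B and PDIA6 also belong to the ER folding list and SERP1 to that of ER entry. The counts thus partly repeat those of the lists. CALR, PDIA6, ERO1B, SERP1, FICD, TRIM5, TMEM120A and EIF2A were those that fell at 8 h, and ALG12 rose. FICD, TRIM5, TMEM120A, EIF2A and ALG12 were named after their values were seen, and the calls of FICD and EIF2A were lost in some fits without 1 library, for FICD without either untreated replicate 1 (adjusted p = 0.14) or 3 (0.11) or TEPA 8 h replicate 1 (0.15) or 2 (0.068), for EIF2A without untreated replicate 2 (0.071) or TEPA 8 h replicate 2 (0.051). The FICD call was also lost with upper-quartile factors (0.053) and with the replicate block (0.068). Against the same shares over all genes, 13 other tested genes with ERSE-II had 4 decreases and 5 increases at 8 h. At 24 h they had 4 decreases and 2 increases, and they include HYOU1 of the folding list. Both genes of this element among the members fell at 24 h, HERPUD1 at both times and SDF2L1 only by the later test.

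The tested genes whose course was most like that of HSPA5 were found by the root mean square difference of centred log2 CPM over the 9 libraries. They were BEX3 (0.0189), FAM120B (0.0323), ZNF160 (0.0324), RAC2 (0.0332) and ARHGEF2 (0.0348). Among the members EIF2AK3 came closest, at rank 50 (0.0608), followed by PDIA4 at rank 637 (0.118), and SDF2L1 was farthest at rank 7744 (0.287). For ERN1 the nearest were EEF1AKNMT (0.0222), AAMP (0.0261), SLC7A1 (0.0265), GTF3C2 (0.0269) and PARP1 (0.0275).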

How the data were processed

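The study sequenced RNA of untreated MDA-MB-231 cells and of cells treated with TEPA for 8 h or 24 h, with 3 replicates each. According to the submitters' processing notes and the methods, reads were checked with FastQC, aligned to hg38 with HISAT2 and counted over exons with strand used by featureCounts (versions not given in the sources used here). The authors deposited raw counts per gene name without normalization. No column was left out.

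In R 4.3.3, edgeR 4.0.16 kept genes by filterByExpr (minimum count 10), scaled libraries by TMM and fitted all 9 libraries in one quasi-likelihood model (biological coefficient of variation 0.0481). Benjamini-Hochberg adjustment ran over 16556 genes, which held 99.9% of counts, and a gene was called at an adjusted p under 0.05. Standard errors are the log2 fold change over the square root of F. With 3 libraries against 3, a two-sided exact permutation test cannot go below 0.1. The counts set a floor to the error of each value, and replicates show the rest. No 2 libraries were identical.

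The members and lists were chosen with earlier results of these data known. From each list and comparison, up to 3 called genes per direction without overlap and with a mean of at least 100 counts could be named, beside the eIF2alpha kinases, ATF6B, MBTPS1, MBTPS2, the KDEL receptors, the markers and the 5 nearest profiles to HSPA5 and ERN1. Not every gene that meets the rule is printed. HSPA5P1 and XBP1P1 were too low to be tested. Gene positions and lengths are from GENCODE on hg38 and promoters from RefSeq.

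On simulated counts of 16285 genes for the 8 h comparison, 70 of 100 genes changed by 0.5 on the log2 scale and 88 of 100 changed by 1 were recovered, with 15 unchanged genes called. Only 200 genes were changed in it, far fewer than were called in the data. It therefore does not probe the scaling or the error rate under so broad a change. Alternatives were RLE and upper-quartile factors, mitochondrial genes left out, DESeq2 1.42.0, other filters, a fold limit, unadjusted p-values, only the groups compared, a replicate block and leaving out each library.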

Additional observations from a re-analysis of the deposited data

Results flagged for a closer look

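For 6 of the 10 members the level in TEPA-treated cells differed between the times, by the contrast of 24 h against 8 h in edgeR's quasi-likelihood fit. This is near the background, since 26% of all genes tested were called higher and 28.8% lower in that contrast. The log2 difference was 0.26 for XBP1, 0.25 for HERPUD1, 0.21 for PDIA4 and 0.09 for HSP90B1, and it was -0.20 for ERN1 and -0.74 for SDF2L1. That of HSP90B1 was lost whenever 1 library of those groups was left out. Groups of 3 libraries are too small to test for outlying samples, and no cause of these differences was tested. Without untreated cells for each time, time in culture and time under TEPA cannot be told apart.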

How the results depend on the processing

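The counts of called members depended on the fold limit. With a log2 fold change beyond 0.5 required, 2 members in place of 8 fell at 8 h, 2 in place of 7 at 24 h, and 0 in place of 4 rose and 1 in place of 2 fell between the times. Under each other setting (RLE or upper-quartile factors, mitochondrial genes left out, DESeq2, other filters, no adjustment of p, only the compared groups in the fit), the counts were unchanged. Among the lists, 18 ER folding genes lower at 8 h became 1 with the fold limit and were 15 to 19 otherwise. The fold limit also took the genes lower at 8 h from 9 to 0 for ERAD and for ER entry. It took them from 11 to 1 for ER-Golgi transport, 7 to 1 for sensor partners and 5 to 2 for the PERK branch. Cytosolic chaperones that rose at 8 h went from 8 to 2. Small list counts moved by more than 1.5 times when 1 library was left out: at 8 h the folding genes that rose went from 3 to 1, those of ER entry from 2 to 0 and those of the PERK branch from 5 to 2, and at 24 h the ERAD genes that rose went from 4 to 2. From 8 h to 24 h, the ER-Golgi genes that rose went from 7 to 4 and those that fell from 2 to 1, and with unadjusted p-values the folding genes that fell went from 5 to 8. Leaving out 1 library gave 8 members lower at 8 h in every fit, 7 to 8 at 24 h, and 3 higher and 2 lower between the times.

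Values that turned sign were not called with all libraries and settings as reported. For XBP1 at 24 h the log2 fold change was 0.0128 with upper-quartile factors, and it ran from -0.0596 to 0.0558 when 1 library was left out. For ATF6 between the times it was 0.0056 with RLE factors, 0.0058 with upper-quartile factors, 0.0072 with DESeq2, 0.0025 without a filter, 0.0012 with 10 counts in every library and 0.0195 with the compared groups alone, and from -0.0165 to 0.0128 without 1 library. For DNAJB9 these were 0.0069, 0.0071, 0.0108, 0.0037, 0.0027 and 0.0197, with 0.0001 without mitochondrial genes, and from -0.124 to 0.0683. For EIF2AK4 at 24 h it was -0.0017 without a filter and ran from -0.0135 to 0.0113 without 1 library, and for HSPA1B 0.0186 with upper-quartile factors, 0.0027 with 10 counts in every library and from -0.0774 to 0.0473 without 1 library. The cause was not tested.

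The labels number the replicates in each group alike. Over all genes tested, same-numbered libraries did not deviate together (correlations from -0.0801 to 0.0383). Libraries with different numbers gave -0.0543 to 0.0732. A correlation over all genes cannot exclude a shared culture or day that acts on few genes, so whether the replicates were paired stays unknown. With the replicate block, 8 members fell at 8 h and 7 at 24 h, and 3 rose and 2 fell between the times, the lost call being HSP90B1 (adjusted p = 0.055 in edgeR's quasi-likelihood test).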
